A study of Mus musculus with 30 samples.

Results

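This report describes 10 genes of iron uptake, storage and export in the subventricular zone (SVZ) and the striatum of mice whose neural precursor cells were ablated. The genes were named as a list, Hfe, Trf, Tfrc, Fth1, Ftl1, Slc40a1, Slc11a2, Cp, Ireb2 and Aco1, and all 10 were found among the 53278 gene symbols of the SVZ counts and the 50508 of the striatum counts. All 10 also passed the filter on low counts in both tissues, which left 16375 genes in the SVZ and 15419 in the striatum. The genes were chosen on measured values of these libraries, with the low SVZ level of Hfe in ablated mice already known. The SVZ values of ablated against control mice are therefore given as a description, with no test, for each of the 10. Whether the striatum values also entered the choice is not recorded, and a test there is not independent evidence. SVZ tests between control groups use libraries that entered the choice, and they are not independent evidence either.

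RNA was sequenced from both tissues of the same 15 adult C57Bl/6 mice, with 1 library per mouse and tissue. NestinTK+ mice carry a viral thymidine kinase driven by the second-intron enhancer of Nestin, and their NestinTK- littermates lack it. Ganciclovir (GCV) or PBS was delivered under the skin for 4 weeks, and GCV kills dividing cells that hold the kinase, so only NestinTK+GCV+ mice lose their precursors. There were 5 ablated NestinTK+GCV+ mice. The controls were 3 NestinTK-GCV+ mice, 3 NestinTK-PBS+ mice and 4 NestinTK+PBS+ mice. Mice are numbered from 1 within their group, with the same number in both tissues, and values given for a whole group follow that order. The labels name precursors as the cell type of the SVZ libraries, whereas RNA came from dissected tissue. Myelin genes were abundant in it: Mbp was between 965 and 4117 CPM, the usual scaling of counts to library size, here with totals adjusted by the trimmed mean of M-values, in the 15 SVZ libraries, against 15.5 to 108 CPM of the neuroblast gene Dcx. A lower value in such tissue can come from fewer cells of a type or from less RNA in each cell, and these cannot be told apart here.

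Iron travels in blood and cerebrospinal fluid bound to transferrin (Trf), enters cells with the transferrin receptor (Tfrc), crosses membranes through the divalent metal transporter (Slc11a2), is stored in ferritin made of heavy (Fth1) and light (Ftl1) chains, and leaves through ferroportin (Slc40a1) where the ferroxidase ceruloplasmin (Cp) acts. HFE is a membrane protein that binds the transferrin receptor and takes part in the control of hepcidin. In the brain, transferrin is made mainly by oligodendrocytes and by the choroid plexus epithelium, and oligodendrocytes are the cells richest in iron. The iron regulatory proteins encoded by Aco1 and Ireb2 bind hairpins in messenger RNA when iron is scarce. Bound in a 5′ untranslated region (UTR) they block translation, and bound in a 3′ UTR they stabilise the message.

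Hairpins of 1 strict form are shown for the genes whose UTRs hold it. The reference transcripts were searched in their UTRs on the coding strand for C, 5 bases and CAGTGN, where the 5 bases before the loop pair with the 5 after it. The windows of 29 bases are in GRCm38 (GENCODE vM21), 5′ to 3′, with the loop in capitals.
Fth1, 5′ UTR, chr19:9982732-9982760, plus strand: ttcctgcttcaaCAGTGCttgaacggaac
Ftl1, 5′ UTR, chr7:45459779-45459807, minus strand: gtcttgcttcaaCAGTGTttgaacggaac
Slc40a1, 5′ UTR, chr1:45925465-45925493, minus strand: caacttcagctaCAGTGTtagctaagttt
Tfrc, 3′ UTR, chr16:32631219-32631247, plus strand: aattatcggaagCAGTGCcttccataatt
Tfrc, 3′ UTR, chr16:32631598-32631626, plus strand: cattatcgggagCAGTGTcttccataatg
Tfrc, 3′ UTR, chr16:32631663-32631691, plus strand: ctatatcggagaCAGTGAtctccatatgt
Tfrc, 3′ UTR, chr16:32631710-32631738, plus strand: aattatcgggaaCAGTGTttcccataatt
Of all genes with an annotated 5′ UTR, 31 of 20900 (0.148%) held a match, and of those with a 3′ UTR, 129 of 21022 (0.614%) did. The ferritin and ferroportin genes thus carried the match before the coding sequence and Tfrc carried 4 matches after it. The UTRs of the other 6 genes held none, which says only that this pattern is not in the annotated UTRs. A hairpin of another form, such as one with an unpaired base in the arm, would be missed. A gene without a match may therefore still be bound. A match is a description of the sequence and not a measured site.

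Counts of a library summed to between 8360810 and 9595103 in the ablated and between 8947137 and 21056005 in the control SVZ. In the striatum they summed to between 2626962 and 3371033 in the ablated and between 2780471 and 4693441 in the control mice. The tissues were sequenced with different kits, whole transcripts in the SVZ and 3′ ends in the striatum, and were therefore fitted apart. The SVZ libraries varied far more between mice: the common biological coefficient of variation was 0.939 in the SVZ and 0.251 in the striatum. In 3 control SVZ libraries, of NestinTK-PBS+ mice 1 and 2 and NestinTK+PBS+ mouse 1, the choroid plexus gene Ttr took between 4.49% and 9.88% of all counts, against at most 0.0187% in the ablated mice. The 15 choroid plexus markers summed to between 47444 and 104367 CPM in those 3 libraries and to between 25.6 and 812 CPM in the other 12. Some SVZ fold changes are also given without these 3 mice, among them those of Hfe, Trf and Steap2 against all controls. Others that include the 3 mice are not.

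Hfe lies on chr13:23702034-23710854 of GRCm38, minus strand, within a cluster of histone genes. In the SVZ it had 0, 1, 0, 0 and 0 counts in the ablated mice. The NestinTK-GCV+ mice had 48, 1 and 4 counts. The NestinTK-PBS+ mice had 469, 796 and 91 counts, and the NestinTK+PBS+ mice 496, 127, 92 and 5. Hfe was thus at or near 0 in every ablated library, but NestinTK-GCV+ mouse 2, with 1 count, lay inside the ablated range, and the 3 controls rich in Ttr were the 3 highest.

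A limit was set at 3 counts in each ablated library, which a count of 0 allows, although ablated mouse 2 had 1 count. It covers counting error only and not the spread between mice. Against it, the mean of the 10 controls of 14.1 ± 16.4 CPM (SD) puts Hfe at least 38.3-fold lower in the ablated SVZ. The same limit was at least 76.3-fold lower against the NestinTK-PBS+ mice and at least 35.9-fold against the NestinTK+PBS+ mice. Both of these groups hold mice rich in Ttr, and their ratios are not given without them. Against the NestinTK-GCV+ mice the ratio was 3.50-fold, but it rests on mouse 1 at 3.45 CPM. Mice 2 and 3 of that group, at 0.110 and 0.303 CPM, lay below the mean limit of 0.368 CPM. The controls therefore differed among themselves, and the group that had also received GCV was nearest to the ablated mice. The fitted log2 fold change of -8.63 ± 1.75 (standard error) depends on the prior count and is no limit. In this comparison 1.22% of all genes were called lower, that is with an unadjusted p of at most 0.01 and a change of at least 2-fold, and since the list was made from it nothing is read from the count of 1 gene called among the 10.

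Without the 3 mice rich in Ttr, Hfe had between 1 and 127 counts in the 7 remaining controls, with a mean of 4.14 ± 4.28 CPM (SD), against 37.3 ± 1.28 CPM (SD, n = 3) in the mice left out. The limit then became at least 11.3-fold lower, and the fitted log2 fold change was -6.81. It was -6.87 with the choroid plexus level as a covariate. With NestinTK-GCV+ mice as the only controls, or with the mice of the 40 number series alone (those whose number in the labels starts with 40), Hfe did not pass the filter on low counts and had no value. All ablated mice are of that series and no NestinTK-PBS+ mouse is, so these groups cannot be told apart from it. Most mice of the other control groups are of that series, so GCV alone and the transgene alone are partly confounded with it. The 3 mice rich in Ttr were the highest both in choroid plexus markers and in Hfe. Among the other libraries, NestinTK+PBS+ mouse 2 had 127 Hfe counts with 33.3 CPM of choroid plexus markers. Ablated mouse 4 had 0 with 263 CPM. These are single libraries, and what part choroid plexus content has in Hfe was not tested. Within the 7 controls Pearson's r between Hfe and the choroid plexus level was 0.21 and Spearman's rho 0.43 (permutation p = 0.638 and 0.356, adjusted p = 0.904 and 0.873 over 100 relations). Left without the 2 samples farthest from the median, r was 0.68 over 5 mice.

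Markers of several other cell types were lower in the ablated SVZ, as Hfe was, whereas the share of mitochondrial counts was higher (median 15.5% against 11.2%). All 15 choroid plexus markers had a lower estimate in the ablated mice (6 called, median log2 fold change -5.59). So did all 10 ependymal markers (3 called, -1.42), all 12 genes of dividing cells (4 called, -3.27) and 9 of 10 neuroblast genes (5 called, -1.27). Of all genes, 1.22% were called lower in this fit. The neuroblast list holds Igfbpl1, which the study had reported as lower in this comparison. Without the 3 mice rich in Ttr only 11 choroid plexus markers passed the filter, 6 with a lower and 5 with a higher estimate (0 called by edgeR, median -0.17). All 10 ependymal markers (2 called, -0.69), all 12 genes of dividing cells (2 called, -2.96) and all 10 neuroblast genes (5 called, -1.40) had lower estimates. The share of all genes called in that fit is not given here, so nothing is read from these counts. Mitochondrial genes took between 13.1% and 17.0% of the counts in the ablated SVZ and between 6.69% and 15.2% in the controls, of which 1 of 10 lay above the lowest ablated library. The ependymal markers, genes of the ciliated cells that line the ventricle, summed to between 28.9 and 231 CPM in the ablated and between 82.7 and 360 CPM in the control SVZ. Across the 10 control mice Hfe and the ependymal level had r = 0.71 and rho = 0.84 (permutation p = 0.00685 and 0.00365, adjusted p = 0.114 and 0.0912). Over the 8 mice left without the 2 farthest from the median, r was 0.42 and rho 0.69. What part each cell type, or the mitochondrial share, has in the Hfe values was not tested. The genes whose pattern over the 15 SVZ libraries was most like that of Hfe were Tuba1c (Spearman's rho 0.96), Tspo (0.91), Mia (0.90), Maats1 (0.89) and Cox6b1 (0.87). Of these, Mia is on the ependymal list. The 15 include the ablated libraries, with Hfe at or near 0, and the 3 rich in Ttr. Over the same 15 the median rho to Hfe was 0.58 for ependymal and 0.53 for choroid plexus markers. It was 0.43 for neuroblast genes and 0.42 for genes of dividing cells.

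Nearby genes were read to see whether the low counts covered the locus. Hist1h4c, a histone gene 3580 bases away, had 2 to 81 counts in the ablated and 11 to 211 in the control SVZ (log2 fold change -0.21 ± 0.884, adjusted p = 0.973, edgeR's quasi-likelihood test). Hist1h2bc, 9126 bases away, had 308 to 917 and 613 to 3894 counts (-0.51 ± 0.312, adjusted p = 0.631). Hist1h1c, 27954 bases away, had 126 to 623 and 100 to 1437 counts (-0.37 ± 0.459, adjusted p = 0.872). Hist1h2ac, 18086 bases away, had 3 to 87 and 0 to 136 counts, with a log2 fold change of 1.10 ± 1.05 (adjusted p = 0.811). The counts of these 4 genes overlapped between the groups. Hist1h2bb, 35880 bases away, was near 0 in the ablated mice, as Hfe was: it had 0 to 3 counts there and 0 to 53 in the controls, with a log2 fold change of -3.95 ± 1.68 (adjusted p = 0.440). Hist1h2ab, 40272 bases away, had 0 to 36 and 4 to 88 counts (-0.55 ± 1.19, adjusted p = 0.942). Hist1h3b, 41413 bases away, had 0 to 18 and 0 to 48 counts (-1.52 ± 1.57, adjusted p = 0.827). None of the 7 passed the test. The other 3 neighbours that reached 10 counts in a library, Hist1h3c, Hist1h4b and Hist1h4a, did not pass the filter, and Hist1h3c had 0 counts in all ablated and up to 29 in the control libraries.

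**Figure D1:**
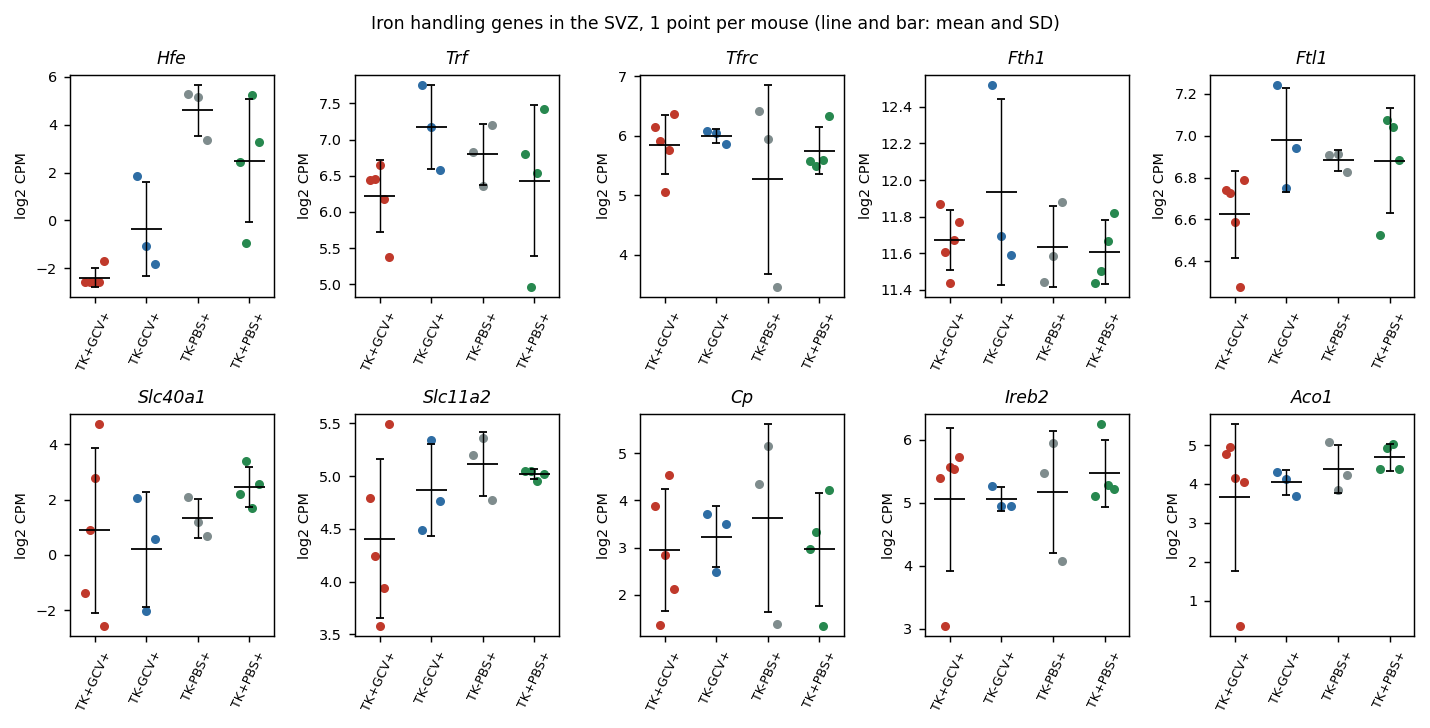
Level of each gene in the SVZ as log2 CPM with a prior count of 2, by group (TK stands for NestinTK), with 1 point per mouse and the mean and SD as line and bar. The 5 NestinTK+GCV+ mice sit at the bottom of the Hfe panel, at -2.57 or -1.70, next to the NestinTK-GCV+ mice, and in the other panels their range overlaps that of the 10 controls.

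GCV without the transgene was examined next, by comparing NestinTK-GCV+ with NestinTK-PBS+ mice. Hfe was lower in the SVZ of the GCV-treated mice, at 1.29 ± 1.87 CPM against 28.1 ± 15.7 CPM (SD, n = 3 each), and the groups did not overlap, as for 6.14% of all genes in the lower direction. The log2 fold change was -4.42 ± 1.50, with an adjusted p of 0.646 in edgeR's quasi-likelihood test, so that Hfe was called by the unadjusted threshold only. It was the only gene of the 10 called, where 1.06% of all genes were called in either direction. The NestinTK-PBS+ mice are among the controls whose Hfe level entered the choice of genes. Nothing is therefore read from this call. The call was lost on leaving out ablated mouse 2, NestinTK-GCV+ mouse 2 or 3, NestinTK-PBS+ mouse 1 or 2 or NestinTK+PBS+ mouse 2, with log2 fold changes from -6.97 to -3.89 over all single omissions, and it was -2.97 without the mice rich in Ttr, when NestinTK-PBS+ was mouse 3 alone. In the same comparison all 15 choroid plexus markers had lower estimates, of which 8 were called (median -7.76), and without the mice rich in Ttr 11 passed the filter, 4 with a lower and 6 with a higher estimate (median 0.55). The labels number the libraries of GCV-treated mice up to 10 and those of PBS-treated mice from 11 on, and GCV cannot be told apart from this numbering. The transgene without GCV, NestinTK+PBS+ against NestinTK-PBS+, gave -1.09 ± 1.20 for Hfe in the SVZ (adjusted p = 1.00). There edgeR, DESeq2 and limma-voom called none of the 10 genes, where edgeR called 0.195% of all genes, and 0 of the 10 had an unadjusted p under 0.05, against 2.69% of all genes. In the striatum the same tools called none of the 10 for the transgene alone, where edgeR called 0.83% of all genes, and 0 had an unadjusted p under 0.05, against 6.41%.

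In the striatum Hfe was barely counted. The ablated mice had 1, 3, 4, 3 and 6 counts, the NestinTK-GCV+ mice 0, 4 and 5, the NestinTK-PBS+ mice 0, 0 and 2, and the NestinTK+PBS+ mice 3, 1, 3 and 0. The groups overlapped, and the log2 fold change of 1.29 ± 0.779 did not pass the test (adjusted p = 0.598). A difference in Hfe was not detectable in the striatum at this depth.

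Trf lies on chr9:103204001-103230444, minus strand. In the striatum it was at 265, 251, 221, 267 and 372 CPM in the ablated mice. The NestinTK-GCV+ mice were at 501, 360 and 475 CPM, and the NestinTK-PBS+ mice at 510, 546 and 589 CPM. The NestinTK+PBS+ mice were at 473, 518, 368 and 713 CPM. The ablated mice were thus the lowest but for mouse 5, which lay above NestinTK-GCV+ mouse 2 and NestinTK+PBS+ mouse 3.

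Trf was 275 ± 56.9 CPM (SD, n = 5) in the ablated and 505 ± 102 CPM (n = 10) in the control striatum. The log2 fold change was -0.88 ± 0.148 (adjusted p = 0.0117, edgeR's quasi-likelihood test). It passed an adjusted p of 0.05, as 0.0843% of all genes did in the lower direction, but not the 2-fold threshold, with a fold change of 0.545. Against each control group alone it was -0.69 ± 0.178 for NestinTK-GCV+ (adjusted p = 0.0324), -0.91 ± 0.165 for NestinTK+PBS+ (0.0339) and -0.99 ± 0.177 for NestinTK-PBS+ (0.0581). Neither GCV alone (-0.30 ± 0.201, adjusted p = 0.494) nor the transgene alone (-0.08 ± 0.187, adjusted p = 0.982) passed the test. The joint effect of both, the difference that neither alone accounts for, was -0.61 ± 0.260 (adjusted p = 0.261) and did not pass it either. Leaving out ablated mouse 1, 2, 3 or 4 brought the adjusted p to 0.0965, 0.101, 0.0899 and 0.0561, while the log2 fold change stayed between -1.01 and -0.81 over all single omissions.

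Myelin genes moved with Trf in the striatum. All 15 oligodendrocyte markers had lower estimates in the ablated mice, of which 3 passed an adjusted p of 0.05, with log2 fold changes from -0.91 to -0.48 and a median of -0.61. Their summed level was between 2462 and 3098 CPM in the ablated and between 2745 and 6725 CPM in the control mice, so the ranges overlapped. By group it was 2748 ± 277 CPM in the ablated, 3254 ± 448 in the NestinTK-GCV+, 4793 ± 897 in the NestinTK-PBS+ and 4357 ± 1602 CPM in the NestinTK+PBS+ mice (SD). The NestinTK-GCV+ mice, at 2745 to 3585 CPM, thus lay below the NestinTK-PBS+ mice, at 3768 to 5440 CPM, and overlapped the ablated mice. Mbp was between 516 and 660 CPM against 623 to 1515 CPM. The 6 markers of oligodendrocyte precursors had a median of -0.12 and none was called.

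Across the 10 control mice Trf rose with the oligodendrocyte level in both tissues. Pearson's r was 0.87 in the striatum (permutation p = 0.00147, adjusted p = 0.0490), with rho = 0.70 (p = 0.0313, adjusted p = 0.313), and without the 2 farthest mice r was 0.64 and rho 0.40. In the SVZ r was 0.91 (p = 7.00e-05, adjusted p = 0.00700), rho was 0.92 (p = 0.000560, adjusted p = 0.0560), and r was 0.85 without the 2 farthest. Over all 15 striatum libraries the genes most like Trf were Gfap (rho 0.95), Enpp2 (0.93), Tmem88b (0.92), Bcas1 (0.91) and Gpr37 (0.91), and in the SVZ Tmem88b again came first (0.86), followed by Eef1b2 (0.85), Gm33594 (0.84), Mipol1 (0.83) and Gm32122 (0.83). None of these genes is on the oligodendrocyte list, and Gfap, with 5 to 109 counts in the striatum, is an astrocyte marker. The 15 libraries of each tissue include the ablated ones. Over the same libraries the median rho of the oligodendrocyte markers to Trf was 0.80 in the striatum and 0.72 in the SVZ.

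The Trf difference was then set against the oligodendrocyte markers of the same library. With their level as a covariate the striatum log2 fold change was -0.42 (adjusted p = 0.0962), which no longer passed an adjusted p of 0.05. As CPM of Trf per 1000 CPM of the markers, a measure chosen after the values were seen, the ablated striatum held 101 ± 22.5 (SD, n = 5) and the control striatum 125 ± 20.4 (n = 10). The difference was -0.32 on the log2 scale (p = 0.0423, two-sided exact permutation test over 3003 splits), and the ranges, 80.9 to 137 and 98.7 to 158, overlapped. The choroid plexus markers, whose epithelium also makes transferrin, were low in the striatum: they summed to between 15.2 and 56.5 CPM, except for 1478 CPM in NestinTK+PBS+ mouse 4, which also had the highest Trf. With the choroid plexus covariate the Trf estimate was -0.84 (adjusted p = 0.00139).

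**Figure D2:**
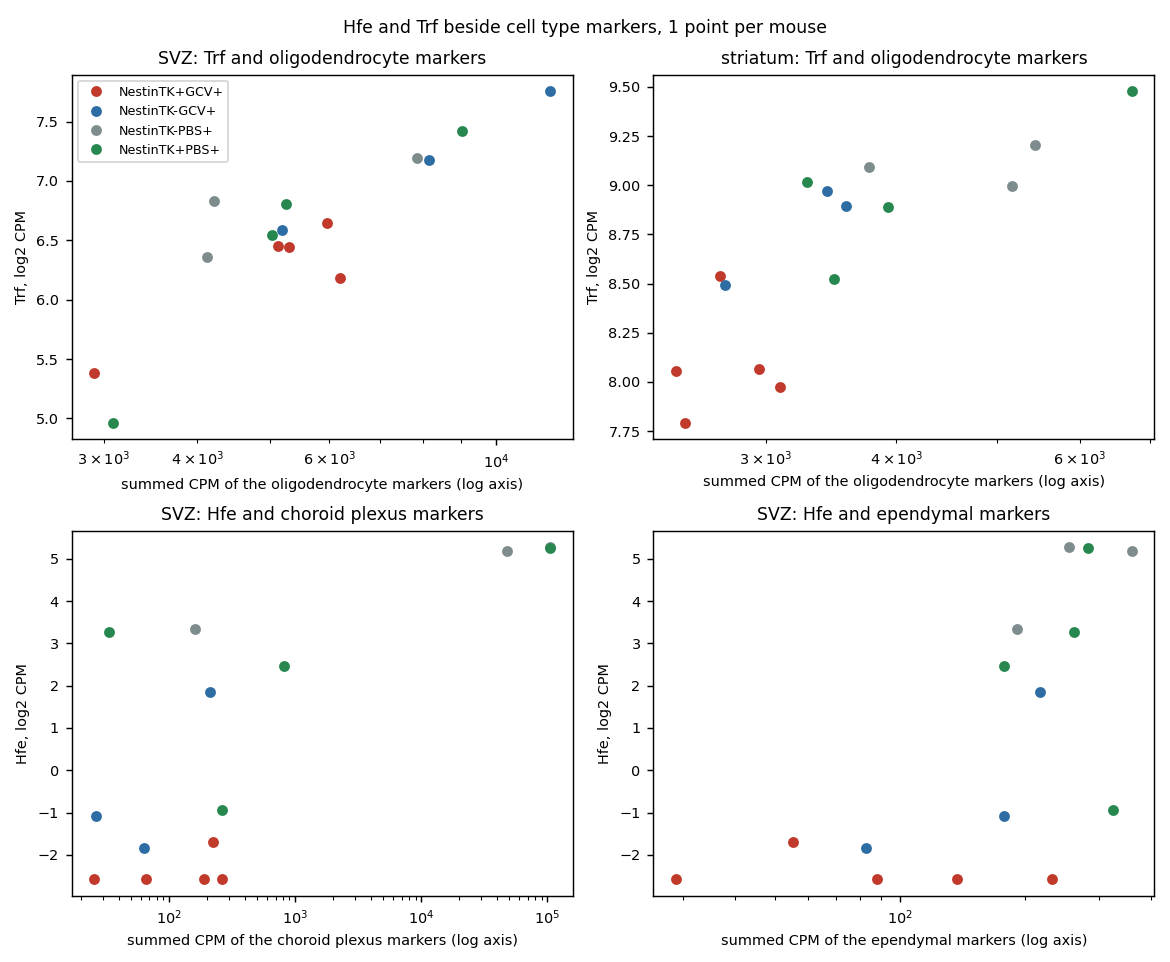
Level of Trf or Hfe (log2 CPM, vertical axis) beside the summed CPM of cell type markers (log axis), with 1 point per mouse in the colour of its group. Trf rises with the oligodendrocyte markers in both tissues and ablated striatum sits at 2462 to 3098 CPM of markers, whereas ablated SVZ libraries have Hfe at the bottom at choroid plexus levels, 25.6 to 263 CPM, that several control libraries share.

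In the SVZ Trf was at 87.4, 41.4, 72.3, 86.9 and 99.8 CPM in the ablated mice. The NestinTK-GCV+ mice were at 216, 95.8 and 145 CPM, the NestinTK-PBS+ mice at 82.0, 114 and 146 CPM, and the NestinTK+PBS+ mice at 93.0, 171, 112 and 31.0 CPM. The ablated mice lay in the lower part of the control range, and NestinTK+PBS+ mouse 4 was the lowest of all. The log2 fold change was -0.63 ± 0.318, with all 10 controls, -0.76 without the mice rich in Ttr and -0.20 with the oligodendrocyte covariate. Per 1000 CPM of oligodendrocyte markers Trf was 15.2 ± 2.27 in the ablated and 18.9 ± 4.10 in the control SVZ. The oligodendrocyte markers had lower estimates for 14 of 15 genes there, none called, with a median of -0.38. Among the SVZ controls, Trf was 96.2 ± 16.0 CPM (SD) in the 3 rich in Ttr and 131 ± 59.0 CPM in the other 7. Within those 7, Pearson's r between Trf and the choroid plexus level was -0.42 (permutation p = 0.329). It was 0.79 over the 5 left without the 2 farthest from the median. What part choroid plexus content has in Trf was not tested. Trf did not pass the test for GCV alone in the SVZ (0.42 ± 0.460, adjusted p = 0.913) or for the transgene alone (-0.17 ± 0.429, adjusted p = 1.00). Of the exon bases of Trf, 63.5% are shared with Gm20425, a gene on the same strand that had 0 counts in all libraries, and how reads in shared exons were counted is not given in the sources used here.

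The receptor Tfrc, whose message is stabilised when iron is scarce, overlapped between ablated and control mice in both tissues. In the SVZ it was 60.0 ± 18.6 CPM in the ablated and 56.9 ± 21.1 CPM in the control mice, with a log2 fold change of 0.08 ± 0.324. In the striatum it was 39.6 ± 7.35 CPM (SD, n = 5) against 35.1 ± 6.32 CPM (n = 10), with a log2 fold change of 0.17 ± 0.147 (adjusted p = 0.725) and an approximate 95% interval from -0.11 to 0.46. The lowest SVZ value, 10.8 CPM, was in NestinTK-PBS+ mouse 3.

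Of the storage genes, Fth1 was by far the most abundant of the 10. In the striatum it was at 1136 ± 112 CPM in the ablated and 1438 ± 174 CPM in the control mice. The ablated mice 1, 2, 3 and 5 were below all 10 controls and mouse 4 lay within the control range of 1206 to 1848 CPM. The log2 fold change of -0.34 ± 0.105 had an adjusted p of 0.205, so Fth1 did not pass the adjusted test. Like Trf, Fth1 rose with the oligodendrocyte level across control striata (r = 0.91, permutation p = 0.000270, adjusted p = 0.0135; rho = 0.85, p = 0.00272, adjusted p = 0.0912; r = 0.76 without the 2 farthest mice). Per 1000 CPM of oligodendrocyte markers it was 415 ± 33.1 in the ablated and 361 ± 61.2 in the control striatum, a log2 difference of 0.22 in the opposite direction (p = 0.0959, two-sided exact permutation test). In the SVZ Fth1 was 3280 ± 366 and 3444 ± 916 CPM, with a log2 fold change of -0.07 ± 0.156.

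Ftl1 in the striatum had 53, 52, 59, 66 and 31 counts in the ablated mice. The NestinTK-GCV+ mice had 10, 10 and 38 counts, the NestinTK-PBS+ mice 113, 16 and 103, and the NestinTK+PBS+ mice 56, 26, 75 and 96. The lowest counts were thus those of NestinTK-GCV+ mice 1 and 2 and NestinTK-PBS+ mouse 2. GCV alone gave a log2 fold change of -1.93 ± 0.535 (adjusted p = 0.0558), called by the unadjusted threshold, where 2.46% of all genes were called in either direction. The joint effect of transgene and GCV was 2.01 ± 0.671 (adjusted p = 0.137), also called, where 3.28% of all genes were. The first call was lost without NestinTK-GCV+ mouse 1 or 2 or NestinTK-PBS+ mouse 1 or 3, with values from -2.80 to -1.55, and the second without any of 10 of the 15 mice, with values from 1.63 to 2.88.

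For ablated against all control striata Ftl1 did not pass the test (0.38 ± 0.422, adjusted p = 0.811). With the oligodendrocyte covariate it was 1.77 and was called by the unadjusted threshold (adjusted p = 0.0573). Against NestinTK-GCV+ mice alone Ftl1 was higher in the ablated mice (1.87 ± 0.504, adjusted p = 0.0405), a comparison that uses the same 3 libraries as GCV alone. Fth1 counts were 21.5 to 42.1 times the Ftl1 counts in the SVZ and 44.4 to 541 times in the striatum. Reads of ferritin pseudogenes may be split from these genes: Ftl1-ps1 had 3 to 14 counts in the SVZ and 0 to 8 in the striatum, and Ftl1-ps2 up to 57 in the SVZ. Gm10252, on the opposite strand to Ftl1 over 26.5% of its exon bases, had 0 to 7 counts in the striatum. In the SVZ Ftl1 was 99.2 ± 13.3 CPM in the ablated and 121 ± 16.1 CPM in the control mice (-0.29 ± 0.150), and the ranges of 77.4 to 110 and 91.9 to 151 CPM overlapped.

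The exporter Slc40a1 varied widely in the ablated SVZ. It had 14, 0, 215, 2 and 54 counts there, against 1 to 148 counts in the controls, and the log2 fold change of 0.93 ± 1.05 was -0.77 without ablated mouse 3 and -0.84 with limma-voom. In the striatum it had 3 to 26 counts in all 15 libraries (0.44 ± 0.382, adjusted p = 0.733). Cp, the ferroxidase, was 10.2 ± 8.49 and 12.6 ± 10.0 CPM in the ablated and control SVZ (-0.30 ± 0.657) and 8.80 ± 2.40 and 7.73 ± 2.35 CPM in the striatum (0.20 ± 0.246, adjusted p = 0.840). The striatum of the 3 NestinTK-PBS+ mice was the lowest and tightest for Cp, at 5.43 ± 0.172 CPM, and GCV alone gave 0.74 ± 0.346 (adjusted p = 0.292), which did not pass the adjusted test.

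The transporter Slc11a2 was 23.6 ± 13.3 and 32.4 ± 5.93 CPM in the ablated and control SVZ (-0.45 ± 0.307), with the ablated mice spread from 11.8 to 44.9 CPM. In the striatum it was 43.6 ± 8.63 and 39.6 ± 6.79 CPM (0.14 ± 0.147, adjusted p = 0.797). Of the iron sensors, Ireb2 was 39.2 ± 17.9 and 40.9 ± 16.8 CPM in the SVZ (-0.06 ± 0.366) and 22.6 ± 4.47 and 21.1 ± 3.19 CPM in the striatum (0.09 ± 0.159, adjusted p = 0.897). Aco1 was 18.6 ± 11.5 and 22.0 ± 7.37 CPM in the SVZ (-0.25 ± 0.482) and 7.47 ± 2.94 and 8.19 ± 3.05 CPM in the striatum (-0.13 ± 0.305, adjusted p = 0.930). GCV alone gave -1.02 ± 0.402 for Aco1 in the striatum (adjusted p = 0.194), where its 3 NestinTK-PBS+ mice, at 10.6 to 11.7 CPM, lay above the 3 NestinTK-GCV+ mice, at 3.81 to 7.32 CPM, as for 10.2% of all genes.

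**Figure D3:**
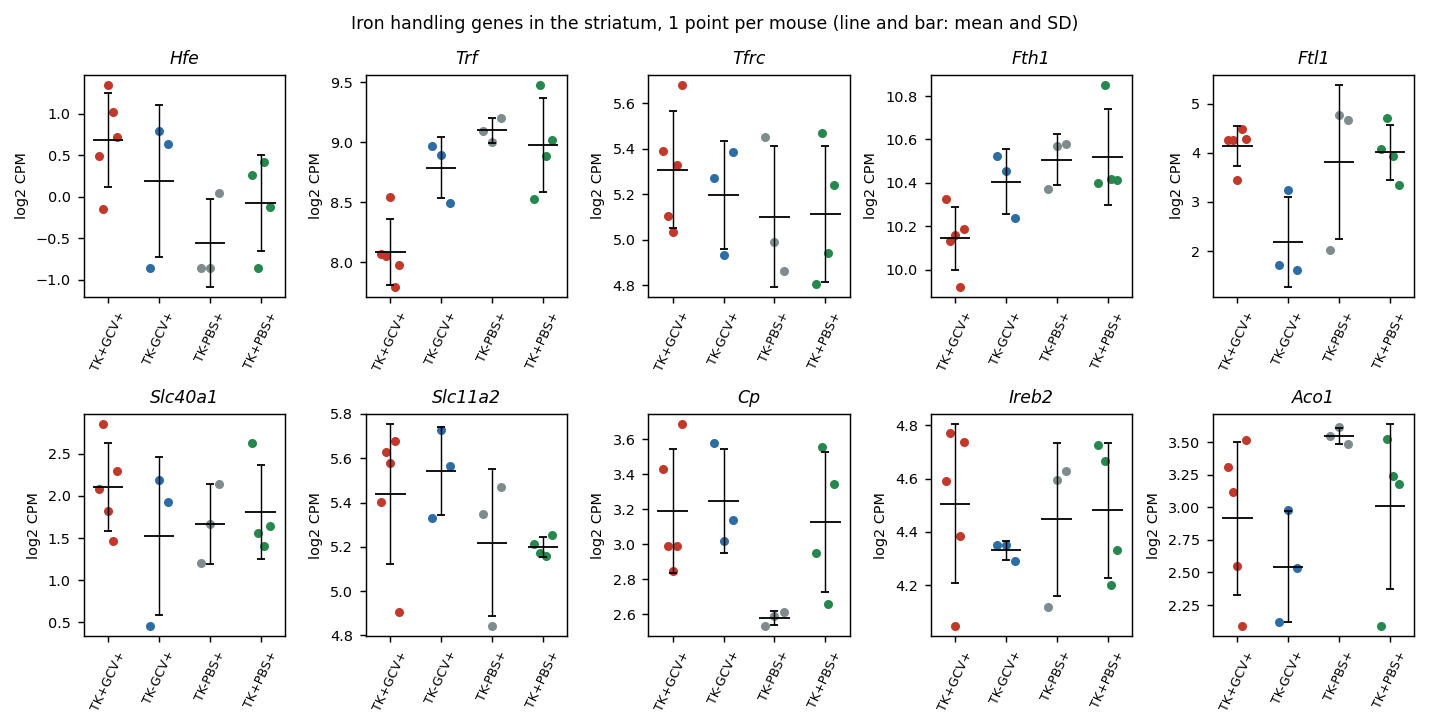
Level of each gene in the striatum as log2 CPM with a prior count of 2, by group (TK stands for NestinTK), with 1 point per mouse and the mean and SD as line and bar. The mean of Trf is lowest in the NestinTK+GCV+ mice, at 221 to 372 CPM, of which 1 lies above 2 control mice, and Ftl1 is low in the NestinTK-GCV+ mice, at 2.5 to 8.97 CPM.

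Levels can be ordered between genes only per length, which the whole-transcript SVZ libraries allow. In CPM per kilobase of exon the control SVZ held 993 ± 264 of Fth1, 90.4 ± 12.0 of Ftl1, 36.3 ± 15.5 of Trf, 9.20 ± 3.41 of Tfrc, 5.09 ± 0.933 of Slc11a2, 4.90 ± 1.64 of Aco1, 4.31 ± 1.77 of Ireb2, 3.94 ± 4.59 of Hfe, 1.32 ± 1.05 of Cp and 0.407 ± 0.323 of Slc40a1 (SD, n = 10). From Slc11a2 down, each gene differed from the next in this order by less than the larger of their SDs. In the ablated SVZ Hfe was last, at 0.00781 ± 0.0175, below Slc40a1 at 0.776 ± 1.24 (n = 5).

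Over the list as a whole, 8 of the 10 genes had a lower estimate in the ablated SVZ, with a median of -0.27 against -0.03 over all genes tested. In the striatum 3 were lower and 7 higher, with a median of 0.16 against 0.00369 over all genes, and Trf alone passed an adjusted p of 0.05, where 0.182% of all genes did in either direction. None of the 10 was called at 2-fold in the striatum by edgeR, DESeq2 or limma-voom, where edgeR called 0.694% of all genes, and 2 had an unadjusted p under 0.05, against 10.5% of all genes. Other genes of iron biology were read from 5 lists of regulators, uptake, storage and export, mitochondrial iron and iron-sulfur clusters, and heme, which held 58 genes in all.

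**Figure D4:**
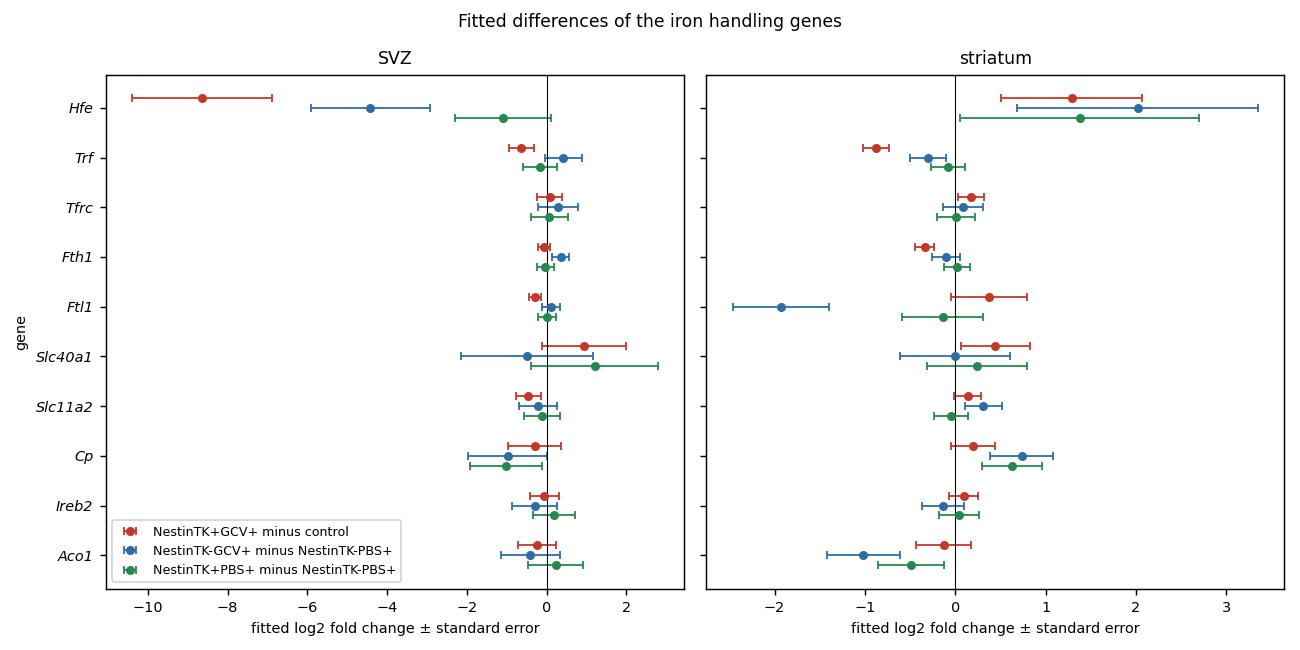
Fitted log2 fold change with its standard error (horizontal axis) for each gene in the SVZ and the striatum, for ablated against control mice, GCV alone and the transgene alone. In the ablated comparison Hfe is the lowest gene in the SVZ (-8.63) and Trf in the striatum (-0.88), and GCV alone holds Hfe in the SVZ (-4.42) and Ftl1 in the striatum (-1.93).

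In the SVZ 49 of the 58 other iron genes were tested, 33 with a lower and 16 with a higher estimate in the ablated mice, and their median of -0.27 was near that of the 10 genes. The genes Steap1 and Steap2, of a family of membrane proteins that includes ferric reductases, were called lower. Steap1 had at most 1 count in the ablated libraries and 0 to 1242 in the controls, at least 42.1-fold lower (adjusted p = 0.347), and the 2 genes called among 49 stand beside the 1.22% of all genes called lower. Without the mice rich in Ttr, Steap1 had 0 to 59 counts in the 7 remaining controls, 4 of them at 0, and did not pass the filter, so its call was lost, and against the NestinTK-GCV+ mice it was at least 4.25-fold lower. Steap2 was 5.27 ± 3.86 CPM in the ablated and 29.1 ± 32.0 CPM in the control SVZ (-2.47 ± 0.818, adjusted p = 0.373). Its estimate was -1.10 without the mice rich in Ttr and -1.14 with the choroid plexus covariate, and neither was called.

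In the striatum 41 of the other iron genes were tested, 21 with a lower and 20 with a higher estimate. None was called by edgeR or DESeq2 at 2-fold or by edgeR at an adjusted p of 0.05, while limma-voom called Hmox1. An unadjusted p under 0.05 was found for 4 of the 41, a share near the 10.5% of all genes, so nothing is read from this count. The genes with the smallest p, none of which passed the adjusted test, were Slc25a28, a mitochondrial iron importer, at 29.5 ± 3.31 CPM in the ablated and 19.1 ± 5.77 CPM in the control mice (0.62 ± 0.187, adjusted p = 0.188), and the heme oxygenases Hmox2 (-0.31 ± 0.115, adjusted p = 0.333) and Hmox1 (-1.60 ± 0.685, adjusted p = 0.406). Hmox1 had 0 to 7 counts in the ablated and 3 to 17 in the control striatum. By heme genes as a group, 10 of 12 tested had a lower estimate in the striatum and 11 of 14 in the SVZ, where 49.5% and 51.9% of all genes had one, with medians of -0.16 and -0.26, and edgeR called none of them in either tissue, while limma-voom called Hmox1 in the striatum. In the other 4 lists the striatum medians were between 0.01 and 0.14, against 0.00369 over all genes. In the SVZ the heme median was near the median of all the other iron genes tested there, so the heme list did not stand out. The SVZ medians of the other 4 lists are not given here.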

How the data were processed

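The authors deposited the read counts of each gene as whole numbers, not normalized. SVZ libraries were made with a low-input whole-transcript kit (SMART-Seq v4) and striatum libraries with a 3′ kit (QuantSeq FWD). The submitters' processing notes name Trimmomatic 0.36, STAR 2.5.3a, featureCounts and mm10; the strand setting is not given in the sources used here, so overlapping and antisense genes are uncertain.

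Groups came from the labels, which give no sex. Each tissue was fitted alone, over the genes that exceeded 1 CPM in 3 or more of its libraries, with edgeR 4.0.16 (TMM, quasi-likelihood test, R 4.3.3), ablated against control and with 4 groups for GCV alone, the transgene alone and their joint effect. P-values were adjusted with Benjamini-Hochberg over all genes of a tissue. CPM divide by library totals scaled with TMM. Log2 CPM have a prior count of 2. Replicates were separate mice, and p-values measure the spread between them. Limits from a count of 0 use 3 counts per library and cover counting error only. Approximate 95% intervals are the estimate and its standard error times the normal quantile. Correlations used 100000 permutations.

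The 10 genes and all lists were chosen with earlier results of these data known. Besides the 10, the text names other iron genes that were called or, where none was, the 3 of smallest p, the 5 genes most like Hfe and Trf, neighbours of Hfe within 50 kb that reached 10 counts in a library, pseudogene copies and marker genes. Other choices were tested with DESeq2 1.42.0, limma 3.58.1, other filters, scalings, covariates and controls, and by leaving out each mouse. The fits were tested on simulated data. Tables used Python 3.11.15, scipy 1.17.1, numpy 2.4.6 and pandas 2.3.3, and figures matplotlib 3.10.9. Hairpins and positions came from GENCODE vM21 (GRCm38), which differs in release from the Gencode M16 of the counts.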

Additional observations from a re-analysis of the deposited data

Results flagged for a closer look

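A sample far from the rest of its group was looked for in 60 combinations of gene, tissue and group, and found in 11; chance gives about 1 in 20. Values are log2 CPM, with the nearest mouse of the group in brackets. In the SVZ, Hfe of ablated mouse 2 was highest at -1.70 (-2.57), a difference of 1 count. Trf of control NestinTK+PBS+ mouse 4 was lowest at 4.96 (6.36), and the same library had the lowest sum of oligodendrocyte markers among controls, 3082 CPM. Tfrc was highest in NestinTK+PBS+ mouse 2 at 6.33 (5.59) and lowest among controls in NestinTK-PBS+ mouse 3 at 3.46 (5.49). Fth1 of NestinTK-GCV+ mouse 1 was highest at 12.5 (11.9). Slc40a1 of NestinTK-GCV+ mouse 3 was lowest at -2.04 (0.575), which is 1 count. Ireb2 was lowest in ablated mouse 1 at 3.04 (5.39) and highest in NestinTK+PBS+ mouse 4 at 6.25 (5.28). Aco1 of ablated mouse 3 was lowest at 0.35 (4.06), with 9 counts.

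In the striatum, Fth1 of NestinTK+PBS+ mouse 4 was highest at 10.9 (10.4), in the library that also held the most choroid plexus markers, 1478 CPM, and the most oligodendrocyte markers, 6725 CPM. Ftl1 of ablated mouse 5 was lowest at 3.44 (4.27).

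The effect of GCV on Ftl1 in the striatum differed between NestinTK+ and NestinTK- mice by 2.01 on the log2 scale (interaction term of edgeR's quasi-likelihood test, adjusted p = 0.137). Ftl1 had 10 to 113 counts in the 15 striatum libraries, and 10 of 15 single omissions ended the call.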

How the results depend on the processing

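The groups are different mice, so nothing pairs them. The SVZ and striatum came from the same mice, but the tissues were fitted apart and no analysis paired them. The count of the 10 genes called for ablated against control SVZ was 1, and 0 with NestinTK-GCV+ mice as the only controls or with the mice of the 40 number series, where Hfe did not pass the filter on low counts; it was 1 without any single mouse, and the log2 fold change of Hfe was -6.01 with limma-voom. The other iron genes called in the SVZ numbered 2, against 4 with DESeq2, 1 with the choroid plexus covariate, and 0 with limma-voom, without the mice rich in Ttr, with NestinTK-GCV+ or NestinTK+PBS+ mice as the only controls or with the 40 number series, and 1 to 2 without single mice (1 without ablated mouse 1, 3 or 5, NestinTK-PBS+ mouse 1 or 2 or NestinTK+PBS+ mouse 1).

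In the striatum 0 of the 10 genes were called, against 1, Ftl1, with the oligodendrocyte covariate (1.77) or with NestinTK-GCV+ mice as the only controls (1.85), and 0 to 1 without single mice (1 without ablated mouse 5). Of the other iron genes 0 were called, against 1 with limma-voom and 2 with the oligodendrocyte covariate, and 0 to 1 without single mice (1 without ablated mouse 4). Trf kept its direction in 25 of 25 settings, from -1.01 to -0.42, and passed an adjusted p of 0.05 in 18. In edgeR's quasi-likelihood test the adjusted p was 0.136 without the mice rich in Ttr and 0.0614 with NestinTK+PBS+ mice as the only controls. It was 0.0962 with the oligodendrocyte covariate. The mice rich in Ttr are so in the SVZ only, and Ttr took 0.000225% to 0.00300% of counts in their striatum libraries. The striatum library of highest Ttr, NestinTK+PBS+ mouse 4 at 0.142%, was kept in that setting. Estimates that did not pass the test turned direction: Slc11a2 to -0.00486 with the oligodendrocyte covariate and -0.11 with NestinTK-GCV+ controls, Cp to -0.0664 with the latter, and Aco1 to 0.0704 without the mice rich in Ttr, 0.59 with the oligodendrocyte covariate, 0.42 with NestinTK-GCV+ controls and -0.29 to 0.0393 without single mice.

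For GCV alone, the count in the SVZ was 1, and 0 to 1 without single mice; in the striatum it was 1, against 0 with limma-voom, and 0 to 1 without single mice. For the joint effect in the striatum it was 1, against 0 with DESeq2 and limma-voom, and 0 to 1 without single mice; Hfe turned from -0.76 to 1.03 without the mice rich in Ttr. For the transgene alone the count was 0, and 1 in the SVZ without the mice rich in Ttr, where NestinTK-PBS+ is mouse 3 alone and is assumed to vary like the other groups. Trf ranged there from -0.54 to 0.14 in the SVZ and from -0.28 to 0.0651 in the striatum without single mice, Ftl1 in the striatum from -0.63 to 0.24 and was 0.32 with limma-voom, and Hfe in the striatum was -0.42 without the mice rich in Ttr. The cause of these changes was not tested. Counts of 0 to 6 for Hfe in the striatum and a coefficient of variation of 0.939 in the SVZ limit what these data can show.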
